A study of Homo sapiens with 2 samples.

Results

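The kallikrein-related peptidase genes KLK5, KLK6, KLK7, KLK8, KLK9, KLK10, KLK11, KLK12, KLK13 and KLK14 were examined, which are 10 of the 19970 protein-coding genes annotated on chromosomes 1 to 22 and X. They were chosen by name, as neighbours on chromosome 19, and every ATAC-seq peak in, between and beside them was taken from both deposited peak lists. ATAC-seq marks open chromatin by the places where the transposase Tn5 can insert sequencing adapters. The cells were SUM159, an established claudin-low, mesenchymal-like triple-negative breast cancer line, transduced with the lentiviral vector pLV-KRAB for dCas9-KRAB, in which a Cas9 that cannot cut DNA is joined to the KRAB repressor domain. In the No gRNA library the vector carried no targeting guide (the empty vector control). In the All gRNA library the cells also had 4 guides aimed at the promoter of ZEB1, a repressor of epithelial genes. Both were grown in medium with insulin and hydrocortisone, and the vector allows puromycin selection. Whether each culture was a clone or a mixed population is not stated in the labels. With 1 library in each condition there is no replicate check and no test, and every difference below is between these libraries.

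Kallikrein-related peptidases are secreted serine proteases, made as inactive precursors, whose genes stand in tandem. In stratified epithelia KLK5, KLK7 and KLK14 act in an activation cascade that cuts the corneodesmosomes holding the outer skin cells together, and the inhibitor LEKTI, made from SPINK5, restrains it. Several members respond to steroid hormones, and KLK10 was first described as NES1, a gene active in normal breast epithelium and silent in many breast cancer lines.

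In SUM159 cells the chromatin of the 10 genes was nearly without peaks in both libraries. No peak lay in the body of any of the 10 genes, in either list. A single weak peak, in the space between KLK10 and KLK11, was called in both libraries at nearly the same place. The All gRNA list held 1 further weak peak, beyond the 3′ end of KLK5, that the No gRNA list did not. The region examined ran from 10 kb beyond KLK5 to 10 kb beyond KLK14, chr19:50933303-51094245 in hg38, a length of 160.94 kb. The No gRNA list covered 200 bp of it (0.124%) and the All gRNA list covered 429 bp (0.267%).

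The sequences under these peaks are shown because they are all the accessible DNA that was called around the 10 genes. They are given on the plus strand of hg38, with motif matches in capitals. The first is the span of the shared peak in either list, chr19:51021233-51021471, where the capitals mark CACGTG, a palindromic E-box. The second is the All gRNA peak beyond KLK5, chr19:50933812-50934040, where the capitals mark TGAGTCA, a form of the AP-1 motif TGANTCA.
KLK10-KLK11 peak: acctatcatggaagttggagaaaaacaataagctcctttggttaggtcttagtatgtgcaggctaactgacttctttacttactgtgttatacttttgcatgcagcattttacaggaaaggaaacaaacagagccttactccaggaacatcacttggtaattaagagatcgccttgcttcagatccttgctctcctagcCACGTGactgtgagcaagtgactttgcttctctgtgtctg
KLK5 3′ peak: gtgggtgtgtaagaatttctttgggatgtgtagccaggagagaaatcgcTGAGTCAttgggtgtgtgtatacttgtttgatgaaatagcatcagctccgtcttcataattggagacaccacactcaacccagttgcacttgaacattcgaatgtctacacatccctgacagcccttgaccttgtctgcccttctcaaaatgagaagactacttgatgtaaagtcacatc
The KLK10-KLK11 span held 42.3% G and C and 2 CpG dinucleotides, 0.187 of the number its base composition would give. The KLK5 3′ peak held 44.1% G and C, with a CpG ratio of 0.269. Over all peaks the median G and C content was 47.6% for No gRNA and 47.5% for All gRNA, with median CpG ratios of 0.267 and 0.260.

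**Figure D1:**
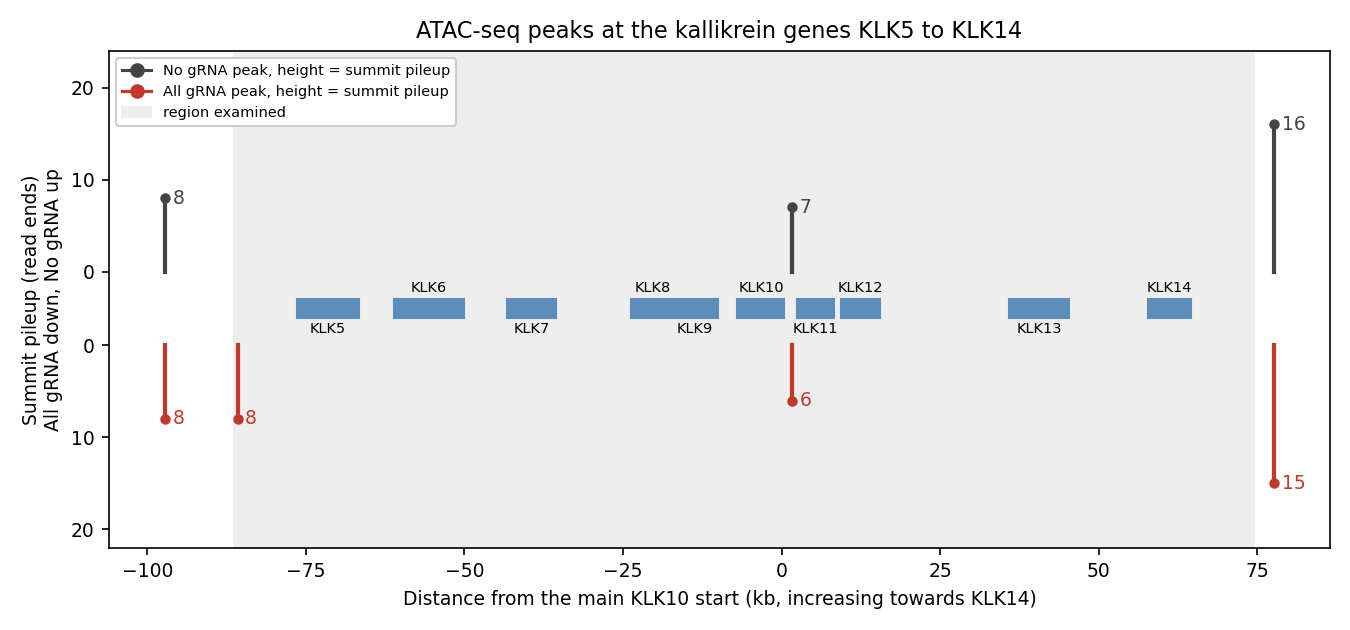
Peaks around KLK5 to KLK14, with the distance from the main KLK10 start in kb on the x axis and the summit pileup in read ends on the y axis, No gRNA upwards and All gRNA downwards. Blue boxes are the gene bodies and grey is the region examined, which held 1 No gRNA peak (pileup 7) and 2 All gRNA peaks (pileups 6 and 8), none of them over a gene body.

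The peak between KLK10 and KLK11 was the only one shared by the libraries. In the No gRNA library it was called at chr19:51021272-51021471, with its summit at 51021395, and stood 4.84-fold over background at a −log10 q of 4.15. In the All gRNA library it was called at chr19:51021233-51021432, with its summit at 51021404, and stood 4.49-fold over background at a −log10 q of 3.47. The summits were 9 bp apart and the calls overlapped by 161 bp. They lay in intergenic DNA, 1220 and 1229 bp upstream of the nearest annotated start of KLK10, and 1686 and 1695 bp upstream of its main start, that of the canonical transcript.

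This peak was among the weakest of each list. By −log10 q it stood at percentile 4.56 of all deposited No gRNA peaks and 4.10 of all deposited All gRNA peaks, with tied peaks given their mean rank. Its summit pileup, the number of Tn5 read ends stacked at the summit as solved from the deposited fold and p, was 7 in the No gRNA library (exact 95% Poisson interval 2.81 to 14.4) and 6 in the All gRNA library (2.20 to 13.1). The intervals overlap over most of their length. The All gRNA library was shallower, at 0.743 times the depth of the No gRNA library, and after scaling for depth the All gRNA pileup was 1.15 times the No gRNA pileup (exact conditional binomial interval 0.320 to 4.01). Scaling by the median ratio of all 48041 one-to-one peaks instead gave 1.24 (0.345 to 4.32), and the ratio of the deposited folds was 0.927. A difference in height was not detectable at this depth, and the interval would hold changes of up to 4.01-fold upwards. Over 2-fold changes with an interval leaving out 1 were rare among all one-to-one peaks, at 2.44% higher and 3.27% lower in All gRNA. Intervals cover counting error only, since read ends need not be independent molecules.

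The shared peak was 200 bp wide in both lists, a difference of 0 bp. This is the shortest width in either list, held by 7.80% of the No gRNA and 10.8% of the All gRNA peaks, so a narrowing could not have been seen. Across all one-to-one peaks 38.2% were wider and 60.7% narrower in All gRNA, with a median difference of −23 bp.

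The peak beyond the 3′ end of KLK5 was called in the All gRNA library only, at chr19:50933812-50934040, 229 bp wide, with its summit at 50933938. Its fold was 6.06, with −log10 q 6.17, and 8 read ends stacked at its summit (exact Poisson interval 3.45 to 15.8). It lay 18730 bp downstream of the nearest KLK5 start, 635 bp inside the edge of the region, and nearer to the start of the pseudogene PPIAP59, at 6367 bp. It is included only because the region extends 10 kb past the 3′ end of KLK5. When the region was limited to gene bodies, the spaces between them and 10 kb around transcript starts, a choice added after seeing the data, each list held 1 peak and there was no one-library peak.

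At the depth of the No gRNA library a pileup of 8 would correspond to 10.8 read ends, against a lowest called pileup of 5 there, and the nearest No gRNA summit was 11503 bp away. Peaks found in a single library were common: 23.8% of peaks in the All gRNA list and 24.7% in the No gRNA list had no overlap in the other list. By −log10 q this one ranked 5340 among the 16211 All gRNA peaks without an overlap, and with ties 43.0% of them were at least as strong. With 1 library a condition, one library and one condition cannot be told apart here.

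**Figure D2:**
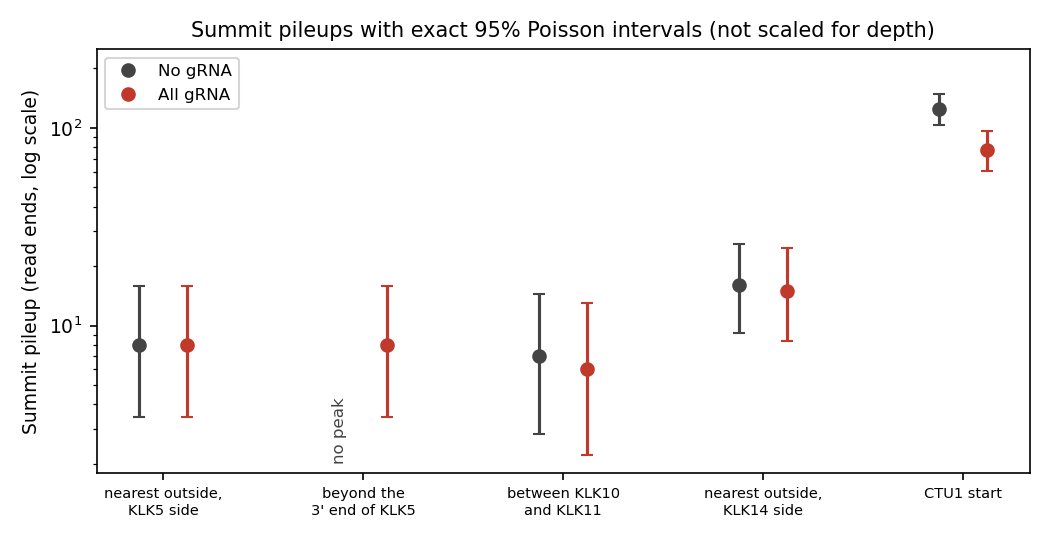
Summit pileups, in read ends on a log axis, of the peaks in and next to the kallikrein region in the No gRNA (grey) and All gRNA (red) libraries, not scaled for depth. Bars are exact 95% Poisson intervals of counting error, and those of the KLK10-KLK11 peak (7 and 6 read ends) overlap, while the peak at the CTU1 start stands far higher in both libraries (124 and 77).

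Gene by gene, in the order of their place on the chromosome and all transcribed from the minus strand, 8 of the 10 genes had no peak within 10 kb of any annotated transcript start in either list, a peak being counted where any base of it fell in that window. The other 2, KLK10 and KLK11, had the shared peak within 10 kb in both lists. Among all protein-coding genes 78% had a peak within 10 kb of a start in both lists, 2.72% in the No gRNA list only, 2.77% in the All gRNA list only and 16.5% in neither. None of the 10 genes had a peak within 10 kb in a single list. The 10 genes are neighbours and share the peak, so they are not 10 separate observations.

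KLK5 (ENSG00000167754.13, chr19:50943303-50953093), the trypsin-like protease that starts the epidermal cascade, had its main start 30603 bp from the nearest No gRNA summit and 19100 bp from the nearest All gRNA summit. This is the largest shift in distance among the genes, together with KLK6, and both come from the All gRNA peak beyond KLK5. KLK6 (ENSG00000167755.15, chr19:50958631-50969673), a trypsin-like protease best known from the central nervous system, stood farthest from a peak in No gRNA, at 47156 bp, against 35653 bp in All gRNA. KLK7 (ENSG00000169035.12, chr19:50976468-50984099), the chymotrypsin-like enzyme of the stratum corneum, lay 37478 and 37487 bp away. The main starts of the 3 genes at this end of the region had no peak summit nearer than 19 kb in either list.

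KLK8 (ENSG00000129455.16, chr19:50996007-51002711), or neuropsin, a trypsin-like protease of brain and skin, had its main start 19791 bp from a No gRNA summit and 19800 bp from an All gRNA summit. KLK9 (ENSG00000213022.6, chr19:51002508-51009634), whose 3′ end overlaps the 5′ end of KLK8, lay 11803 and 11812 bp away. KLK10 (ENSG00000129451.12, chr19:51012739-51020175), the NES1 gene, was nearest to a peak, at 1686 and 1695 bp. It had no peak within 1000 bp of any of its 5 annotated start sites.

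KLK11 (ENSG00000167757.14, chr19:51022216-51028039), a trypsin-like member, has the shared peak beyond its 3′ end, 5221 and 5212 bp from its main start. KLK12 (ENSG00000186474.16, chr19:51029092-51035230) lay 13607 and 13598 bp from a summit. KLK13 (ENSG00000167759.13, chr19:51055626-51065114) lay 32283 and 32322 bp away, beyond the widest space between members, the one that parts it from KLK12. KLK14 (ENSG00000129437.11, chr19:51077495-51084245), the trypsin-like protease that can activate other kallikreins in skin, lay 14488 and 14527 bp away, and its nearest peak was outside the region, on the side of CTU1.

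Over the 10 genes the median distance from main start to nearest summit was 17140 bp with the No gRNA peaks and 16814 bp with those of All gRNA. Over all 19970 protein-coding genes the medians were 225.5 and 235 bp. All 10 genes lay farther from a peak than the median gene in both lists. Distances over 10 kb were found for 23.8% of all genes with the No gRNA peaks and 23.9% with the All gRNA peaks.

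**Figure D3:**
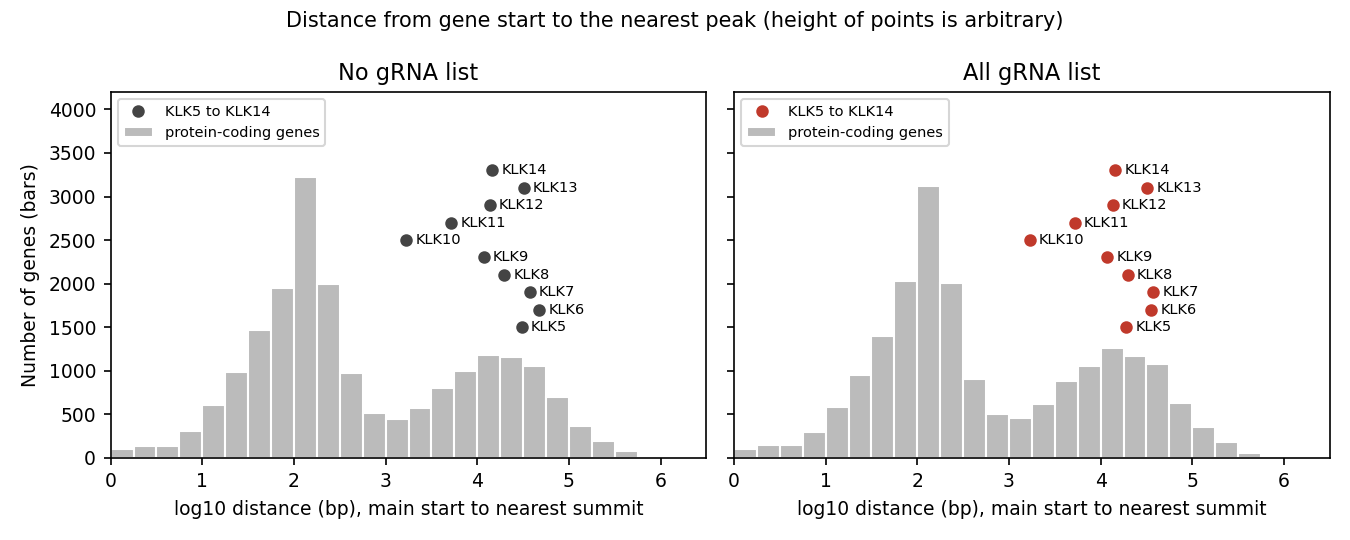
Distance from the main transcript start to the nearest peak summit, on a log10 scale of bp, for all protein-coding genes (bars, number of genes) and for KLK5 to KLK14 (points, whose height has no meaning), in the No gRNA list (left) and the All gRNA list (right). All 10 genes fall above the median of all genes (225.5 and 235 bp), and KLK10 is the nearest to a peak in both.

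The peak-free stretches that held the genes were longer than the median gap of each list. In the No gRNA list, 98.7 kb free of peaks (chr19:50922601-51021271) held KLK5 to KLK10, and 75.8 kb (chr19:51021472-51097223) held KLK11 to KLK14. Gaps at least that long made up 9.76% and 14.1% of the 67845 gaps of the list, whose median was 18.3 kb. In the All gRNA list the first stretch was divided by the peak beyond KLK5 into 11.1 kb, which is shorter than the median, and 87.2 kb, and the second was 75.8 kb, against a median gap of 19.5 kb.

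Among 18128 windows of the same length across chromosomes 1 to 22 and X, the median was 3 peaks in each list. As few peaks as in the kallikrein region were found in 31.8% of windows for No gRNA and 42.6% for All gRNA. Most windows hold far fewer genes, so the 120 windows with at least 10 protein-coding starts were also counted, a choice added after seeing the data. In these the median was 11 peaks in both lists, and 7 windows (5.83%) had as few as the region in No gRNA and 10 (8.33%) in All gRNA. The 7 windows as poor in peaks in both lists held other tandem gene families and were named after their values were seen. The keratin-associated protein (KRTAP) genes were in 3 windows and the protocadherin beta (PCDHB) genes in 1. The rest held the USP17L genes, the CT47 genes, and FAM90A genes with beta-defensin (DEFB) genes, in 1 window each. How well reads can be placed in such repeated genes was not measured.

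**Figure D4:**
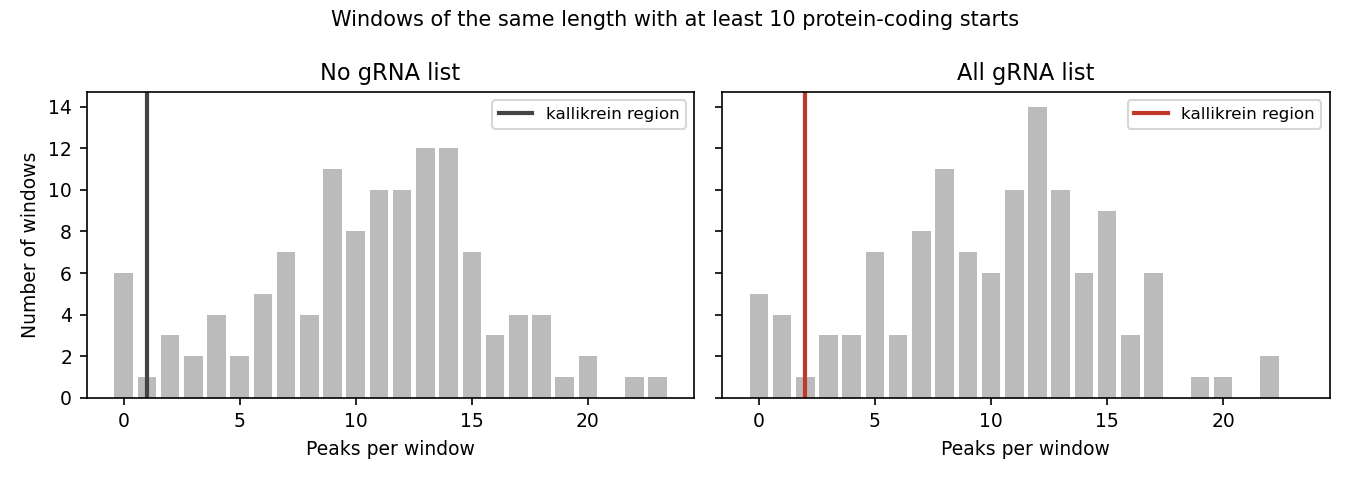
Number of peaks per window (x axis) over the 120 windows of the same length with at least 10 protein-coding starts (y axis, number of windows), for the No gRNA list (left) and the All gRNA list (right). The line marks the kallikrein region, at 1 and 2 peaks, at the low end of windows whose median is 11.

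Set beside 3 other tandem clusters of epithelial or secreted-protease genes, also chosen after seeing the data, the kallikrein region had the fewest peaks per length, with 0.621 per 100 kb in No gRNA against 1.24 in All gRNA. The cornified envelope genes on chromosome 1, from FLG to LORICRIN, had 1.33 and 1.84 per 100 kb. The SERPINB protease inhibitor genes on chromosome 18 had 3.55 and 3.73, and the matrix metalloproteinase genes on chromosome 11 had 4.39 and 3.30. The strongest peak of each of these clusters had a −log10 q of 56.0 or more in No gRNA and 28.8 or more in All gRNA, against 4.15 and 6.17 at the kallikreins. These maxima are not on a common length. The 3 clusters spanned 455 to 980 kb with at least 13 peaks in each list, and the kallikrein region 160.94 kb. The higher All gRNA values at the kallikreins rest on the 1 peak beyond the 3′ end of KLK5. With the region limited to gene bodies, spaces and start windows, both lists had 0.660 peaks per 100 kb. The All gRNA peak left there had a −log10 q of 3.47. These densities have no replicate, and no test of the differences was made.

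On either side of the region the nearest peaks were called in both libraries. On the KLK5 side the peak was at chr19:50922390-50922600 in No gRNA and chr19:50922343-50922690 in All gRNA, with a pileup of 8 in each and a depth-scaled ratio of 1.35 (0.440 to 4.11). On the KLK14 side it was at chr19:51097224-51097692 and chr19:51097244-51097685, with pileups of 16 and 15 and a ratio of 1.26 (0.581 to 2.72). The next one beyond KLK14, at the start of CTU1, a gene of tRNA modification used in every cell, had pileups of 124 and 77, a fold of 21.6 and 19.1 and a ratio of 0.836 (0.620 to 1.12). All 3 intervals include 1.

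Both of the peaks that flank the region held a match to the CTCF core, the motif of the insulator protein CTCF, which was held anywhere in the peak by 5.68% of the No gRNA list and 4.93% of the All gRNA list. The matches are shown because they stand on opposite sides of the 10 genes, each as 41 bases on the minus strand with the match in capitals, at chr19:50922414-50922454 and chr19:51097555-51097595.
KLK5 side: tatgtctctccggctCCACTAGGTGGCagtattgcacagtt
KLK14 side: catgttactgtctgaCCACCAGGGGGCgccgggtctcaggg
On the KLK5 side the match centre was 1 bp from the No gRNA summit and 88 bp from the All gRNA summit, and on the KLK14 side 199 and 160 bp. Both matches read in the same direction. Of the other motifs searched, the KLK5 side peak also held CAGGTG, the ZEB1-type E-box, at 1 site in the No gRNA call and 2 in the All gRNA call, and the KLK14 side peak held 1 AP-1 match in both calls. A match is a sequence description, and binding of CTCF was not measured in these libraries.

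The peaks of the region held few of the motifs searched, on both strands, within 100 bp of the summits. The peak between KLK10 and KLK11 had none of the 6 motifs of the main list, which were CAGGTG (the E-box that ZEB1 binds), CAGCTG (another E-box), TGANTCA (AP-1), AACNGGTT (grainyhead-like factors), TGTTCT (a short steroid receptor motif) and the CTCF core. CAGGTG stood within 100 bp of the summit in 11.6% of the peaks of No gRNA and 13.1% of those of All gRNA, and TGANTCA in 30.3% and 31.2%. The CACGTG printed in capitals above was looked for after the sequence had been seen. It starts at 51021432, within 100 bp of both summits, lies inside the No gRNA call and crosses the end of the All gRNA call, and occurs near 3.83% and 3.71% of summits. The peak beyond KLK5 had the AP-1 match at 50933861 and no other of these motifs.

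The region itself held 238 CAGGTG sites, or 1.48 per kb, against 0.863 per kb over chromosomes 1 to 22 and X. None of the 238 sites lay in a peak of either list. Peaks covered only 0.124% of the region in No gRNA and 0.267% in All gRNA. With so little of it in peaks, this count cannot set the CAGGTG sites apart from the rest of the region's sequence. Genome-wide, 0.800% of the 2512011 sites lay in a No gRNA peak and 0.811% in an All gRNA peak. The region had 49.8% G and C and chromosome 19 as a whole 47.9%. The density of CAGGTG on chromosome 19, or in sequence of like composition, was not computed. Whether the higher density goes beyond base composition was therefore not tested.

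Promoter sequences, from 250 before to 50 after a start, were taken from RefSeq (GRCh38.p14) and found for 9 of the 10 genes, KLK8 being absent from the table, as 16 promoters that partly overlap. CAGGTG was found in 7 of the 16, at KLK6, KLK7, KLK9, KLK11, KLK12 and KLK14, and in 20.6% of all 34961 promoters. CAGCTG was found in 4 of 16, at KLK7 and KLK14, against 18.0% of all. No member promoter held the AP-1, grainyhead, steroid receptor or CACGTG motif, which were in 7.68%, 1.73%, 14.8% and 7.27% of all promoters. None held TATAAA on the gene's strand, which 7.33% of all did. The CTCF core was found in 1, at KLK5, against 2.41% of all. Where 12 bases on either side were within the promoter, the CAGGTG sites are printed on the gene's strand with the match in capitals (CACCTG is the same site read on the other strand), because they are ZEB1-type E-boxes within these promoter windows. None lay in a peak, and the region held only 1 No gRNA and 2 All gRNA peaks.
KLK6, chr19:50969796-50969825: tccagtcagggcCAGGTGggcagtcagaga
KLK7, chr19:50983808-50983837: tcatcaagggtgCACCTGtaggggagaggg
KLK9, chr19:51009546-51009575: cgttccaggatcCAGGTGcccaggggtcat
KLK11, chr19:51027599-51027628: tgccttgctccaCACCTGgtcaggggagag
KLK11, chr19:51026612-51026641: cctggtgcctggCACCTGgcgctccaaccc
The KLK7 match began 10 bp upstream of its nearest start, the KLK6 match 222 bp upstream and the KLK9 match 29 bp downstream. The KLK11 matches began 30 bp downstream and 13 bp upstream of different starts.

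The member promoters were GC-rich but poor in CpG. Their median was 61.8% G and C, from 54.3% to 70.7%, against 58.7% over all promoters. Their median CpG ratio was 0.331, against 0.580, and 15 of the 16 were below the median of all, the exception being a promoter of KLK13 at 0.614.

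The 5 other kallikrein genes, on the KLK5 side, were KLK1, KLK15, KLK3, KLK2 and KLK4, and were looked at in the same way. A peak within 10 kb of a start was found for 2 of them in No gRNA and 3 in All gRNA. KLK3, which encodes prostate-specific antigen, and KLK2 had none in either. An intron of KLK15 held the strongest peak of these genes, at chr19:50836040-50836443 in the No gRNA library, with a pileup of 35 there. In All gRNA the pileup was 15, and the ratio scaled for depth was 0.577 (0.293 to 1.08). The interval includes 1. Near KLK1, a peak in the pseudogene TMEM277P had pileups of 25 and 11 and a ratio of 0.592 (0.263 to 1.25). Beside it stood a peak of the No gRNA list alone, chr19:50818042-50818290, with a pileup of 14 and a −log10 q of 8.63, within 10 kb of a start of both KLK1 and KLK15. One-library peaks thus lay near these genes in both lists.

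The difference between the lists at KLK4, which encodes a protease of tooth enamel formation, was an All gRNA peak at chr19:50896654-50897095 between the pseudogene KLKP1 and KLK4, named here after its values were seen. Its summit, at 50896819, was 421 bp from the KLKP1 start and 10001 bp from a KLK4 start, and it counts as within 10 kb only because part of the peak overlaps that window. It lay outside the region of the 10 genes. It was 442 bp wide and stood 9.38-fold over background, at a −log10 q of 14.1. The pileup at its summit was 17 (exact Poisson interval 9.90 to 27.2). At No gRNA depth this corresponds to 22.9 read ends against a lowest called pileup of 5, and the nearest No gRNA summit was 25616 bp away. Among All gRNA peaks without an overlap 3.18% were at least as strong. Its central 201 bases, chr19:50896719-50896919 on the plus strand, are shown because they hold 1 CAGGTG and 1 AP-1 match, both in capitals.
KLKP1 to KLK4 peak: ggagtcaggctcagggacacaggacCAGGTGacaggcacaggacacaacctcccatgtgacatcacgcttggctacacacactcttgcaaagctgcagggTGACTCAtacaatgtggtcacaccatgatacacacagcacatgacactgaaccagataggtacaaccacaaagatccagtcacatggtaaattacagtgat
Without a second library of each condition, it was not tested whether this peak belongs to the condition or to the library.

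Genes that act with the kallikreins were compared as 4 lists of 23 genes in all, the other kallikrein genes above included. Peaks within 10 kb of a start were found for 16 of the 23 in No gRNA and 17 in All gRNA, 16 of them in both, with KLK4 the 1 in All gRNA only, against 78% of all protein-coding genes in both lists. The activating proteases and their inhibitors (ST14, PRSS8, TMPRSS2, SPINT1 and SPINT2) had a peak in 5 of 5, the direct kallikrein inhibitors in 4 of 6 and the substrates and receptors in 5 of 7, with the same counts in both lists. Of the inhibitors, SPINK5 had a peak within 1000 bp of a start with pileups of 11 and 12, and SPINK9 one with 13 and 12. Neither was near the main start. The nearest summits were 27145 and 27180 bp from that of SPINK5, and 7733 and 7804 bp from that of SPINK9. Of the receptors, BDKRB2, a bradykinin receptor, had a peak within 1000 bp of a start with pileups of 60 and 37.

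At the 7 one-to-one peaks within 1000 bp of a start of these genes, 1 was over 2-fold higher in All gRNA with an interval leaving out 1, and none was lower. It was at the main start of SPINT2, which encodes HAI-2, an inhibitor of the membrane proteases that activate kallikreins. The peak was at chr19:38264117-38264608 with a pileup of 8 in No gRNA and at chr19:38264032-38264711 with a pileup of 23 in All gRNA, and the ratio was 3.87 (1.67 to 10.0). The other peaks at SPINT2 starts had ratios of 0.987 (0.410 to 2.30) and 0.841 (0.535 to 1.31). Such a rise was seen in 2.44% of all one-to-one peaks, as given above.

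As a check of the labels, the main ZEB1 start on chromosome 10 had 2 peaks within 1 kb in the No gRNA list, the higher with a pileup of 27, and none in the All gRNA list. The 6 mesenchymal markers (VIM, CDH2, ZEB2, SNAI2, FN1 and AXL) all had a peak within 1 kb of a start in both lists, against 68.1% of all protein-coding genes in No gRNA and 67.3% in All gRNA, with highest pileups of 30 to 102 in No gRNA and 17 to 62 in All gRNA. Of 5 epithelial markers, EPCAM had one in both lists, CLDN4 in No gRNA only, CLDN7 in All gRNA only, and CDH1 and CLDN3 in neither. Of the luminal markers GATA3 and FOXA1 had one in both lists and ESR1 and PGR in neither. Any annotated start counted here. The main start of EPCAM was 8200 and 8071 bp from the nearest No gRNA and All gRNA summits. That of CLDN4 was 2603 bp from the nearest No gRNA summit, and that of CLDN7 2283 bp from the nearest All gRNA summit. Within 4 kb the No gRNA list had a peak at 4 of the 5 epithelial and 4 of the 4 luminal markers and the All gRNA list at 2 and 2, the difference being CDH1, CLDN4, ESR1 and PGR. This difference depended on the distance used. Within 10 kb both lists had a peak at 4 of the 5 epithelial and 4 of the 4 luminal markers, against 78% of all protein-coding genes. By main start, CDH1 and PGR were nearer to a summit in All gRNA, and CLDN4 and ESR1 in No gRNA. The share of all protein-coding genes within 4 kb was 74.3% in No gRNA and 73.9% in All gRNA. Within 1 kb, PTPRC and CD3E of leukocytes and CDH5 of endothelium had no peak, and PECAM1 of endothelium had one in both lists. The main start of PECAM1 was 5112 and 5414 bp from the nearest No gRNA and All gRNA summits. Within 4 kb CDH5 had a peak in both lists as well, and PTPRC and CD3E still had none.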

How the data were processed

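ATAC-seq of SUM159 cells was available as 1 library per condition, No gRNA and All gRNA. The authors used fastp for trimming and bowtie2 for mapping to hg38, discarded mitochondrial, excluded-region and duplicate reads, and ran MACS2 per library, with no control library. No tool versions are printed because those listed in the submitters' processing notes could not be read as versions. The deposited lists give each peak's position, a fold over local background (a ratio), −log10 p and −log10 q values and a score. The score was not used. The stated MACS2 extension was 150 bp, but the shortest peak was 200 bp, and the depth that a 200 bp window gives was 8800000 read ends in No gRNA against 6540000 in All gRNA, a ratio of 0.743 that does not depend on the window.

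Chromosomes 1 to 22 and X held 67868 peaks for No gRNA and 68238 for All gRNA, of median width 342 and 317 bp, median −log10 q 14.1 and 10.2 and median pileup 19 and 14. Summit pileups were solved from fold and −log10 p as deposited (for 100% of peaks), and depth was taken from the lowest background of each list (0.652 and 0.484). A peak called at that background needed a pileup of at least 5 in No gRNA and 4 in All gRNA. Peaks overlapping by at least 1 bp were called shared. Ratios carry exact 95% conditional binomial intervals and pileups exact Poisson intervals, for counting error only. Genes and starts were from GENCODE release 44 on hg38. The region reached 10 kb beyond the outermost transcripts. Besides KLK5 to KLK14, and every peak of their region with the nearest peak outside on each side, pathway genes were named where a peak within 1000 bp of a start was in 1 list only or a one-to-one peak there was past 2-fold with an interval leaving out 1. Other genes named were chosen after their values were seen or as markers. Alternatives were thresholds of 5 and 10 on −log10 q, the 50000 strongest peaks, other overlap rules, distances of 4000 and 1000 bp, canonical starts, other scalings and whole-peak motif searches. The members and lists were chosen with earlier results of these data known. Scripts were tested on simulated data. Python 3.11.15, numpy 2.4.6, pandas 2.3.3, scipy 1.17.1 and matplotlib 3.10.9 were used.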

Additional observations from a re-analysis of the deposited data

How the results depend on the processing

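No paired analysis was possible because each condition held 1 library. Of 50 alternative values, 35 kept the count or moved by less than counting error and 15 moved. Among the 35, the height ratio of the shared peak changed side of 1 within its counting error. It was 1.15 scaled for depth and 0.927 by the deposited folds. With a −log10 q of at least 5 the region held 0 No gRNA and 1 All gRNA peaks, and 0 of the 10 genes had a peak within 10 kb in either list. No shared peak was left there to give a width. With at least 10, or with the 50000 strongest peaks, it held 0 peaks in both lists and 0 in All gRNA only. These losses follow from the low −log10 q of the peaks. Within 1000 bp of a start, 0 genes had a peak in either list. In the region limited to bodies, spaces and start windows, added after seeing the data, the All gRNA list held 1 peak and 0 in that list only. A whole-peak search, also added, took CACGTG from 1 to 0 All gRNA peaks, since the match crosses the peak's end. The peak lists give no reads between peaks, so signal below the calling limit at the 10 genes was not measured, and 1 library per condition leaves the spread between cultures unknown.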
